A study of Mus musculus with 6 samples.

Results

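SLC6A14 and 7 further genes for amino-acid transporters of the plasma membrane were examined in CFPAC-1 cells after knockdown of KRT7, a keratin of glandular ducts. These 8 members, out of 30543 genes in the count table, were picked out by their identifiers, in the order SLC6A14, SLC7A5, SLC3A2, SLC1A5, SLC1A4, SLC38A1, SLC38A2 and SLC7A1. CFPAC-1 is an established human line of pancreatic ductal adenocarcinoma (PAAD), and it is the single line of the series. The control group (si-Control, 3 libraries) had received a negative control siRNA, and the knockdown group (si-KRT7, 3 libraries) a siRNA against KRT7. A siRNA guides the silencing machinery of the cell to a matching transcript and lowers its level. Which KRT7 duplex was used, the time of harvest after transfection, and whether the replicates of the sequencing were separate cultures are not given in the labels. The study states independent experiments in a legend shared by several assays, without naming the sequencing, so the spread between libraries may be technical. All 6 libraries were made from polyadenylated RNA. In the sample labels the organism is given as mouse, but all 30543 identifiers belong to human Ensembl genes. The name tables used here are those of the mouse, so the level of KRT7 itself, which would check the knockdown, and markers of the cell line were not analysed here.

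Amino-acid transporters of the solute carrier (SLC) families work as a network. Sodium-coupled carriers load the cell with a few amino acids such as glutamine, and obligatory exchangers then trade these for the essential amino acids that the cell cannot make. Leucine brought in this way feeds the growth kinase complex mTORC1, as does arginine. Several of the transporter genes are known to be raised in tumours, including those of the pancreas. SLC6A14 stands out within the network because it concentrates both neutral and cationic amino acids, driven by sodium and chloride.

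Libraries held between 28208896 and 36315802 counts, and all 8 members were among the 15736 genes that passed the low-count filter of edgeR. Values are counts scaled to a library total of 1000000 (CPM) with edgeR's TMM factors, which lay between 0.976 and 1.03. Replicate 2 of si-KRT7 stood apart from the other si-KRT7 libraries. On log2 CPM over all genes tested it correlated at 0.986 with each si-Control library and at 0.982 with si-KRT7 replicates 1 and 3. Replicate 2 was thus closer to si-Control than to its own group by this measure. Of the si-KRT7 libraries it was the one farthest from the mean of its group partners, on log2 CPM, in 8 of 8 members and in 75.1% of the 12462 genes with a mean of at least 50 counts. Each member is therefore given library by library, and fold changes are also given without that library. A bulk library cannot tell fewer cells with a transcript from less transcript per cell.

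SLC6A14 was chosen for its difference in this same comparison, and the other members were gathered around it with earlier results of these libraries known. The differences between the groups are thus a description, and no p-value is given for a member. In edgeR's quasi-likelihood fit over all genes, 1 of the 8 members, SLC6A14, passed both limits (adjusted p under 0.05, log2 fold change beyond 1 in either direction), as did 0.292% of all genes tested. With the adjusted p alone, 3 members passed (SLC6A14, SLC7A5 and SLC1A5), beside 2.07% of all genes. Of these, 1 was higher (background 0.712%) and 2 were lower (background 1.35%) in si-KRT7 cells.

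SLC6A14 (ENSG00000268104) was the sparsest member, with 35, 26 and 39 counts in si-Control replicates 1, 2 and 3 and with 127, 78 and 117 counts in si-KRT7 replicates 1, 2 and 3. In CPM these were 1.01, 0.718 and 1.24 in si-Control and 3.42, 2.84 and 3.80 in si-KRT7 cells. Every si-KRT7 library, replicate 2 included, lay above every si-Control library. The means were 0.991 ± 0.261 CPM (SD, n = 3) and 3.35 ± 0.484 CPM (SD, n = 3), and the fitted log2 fold change was 1.76 (standard error 0.25), a 3.40-fold higher level. By log2 fold change the gene ranked 24 from the top among the 15736 genes tested. Counting error alone was wide at this depth. Before TMM scaling, the exact 95% binomial interval reached from 0.868 to 1.67 CPM in the highest si-Control library and from 2.19 to 3.45 CPM in the lowest si-KRT7 library. These intervals did not overlap, but the gene was chosen for its difference in these same counts, so the gap is a description only. PCR reads are not independent molecules, and such intervals cover counting error only. Without si-KRT7 replicate 2 the log2 fold change was 1.87, and it lay between 1.57 and 1.95 when single libraries were left out in turn. SLC6A14 was no longer past both limits in 5 of these 6 fits, the exception being the one without si-KRT7 replicate 2. Those 5 fits left between 6 and 20 genes past both limits in all.

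**Figure D1:**
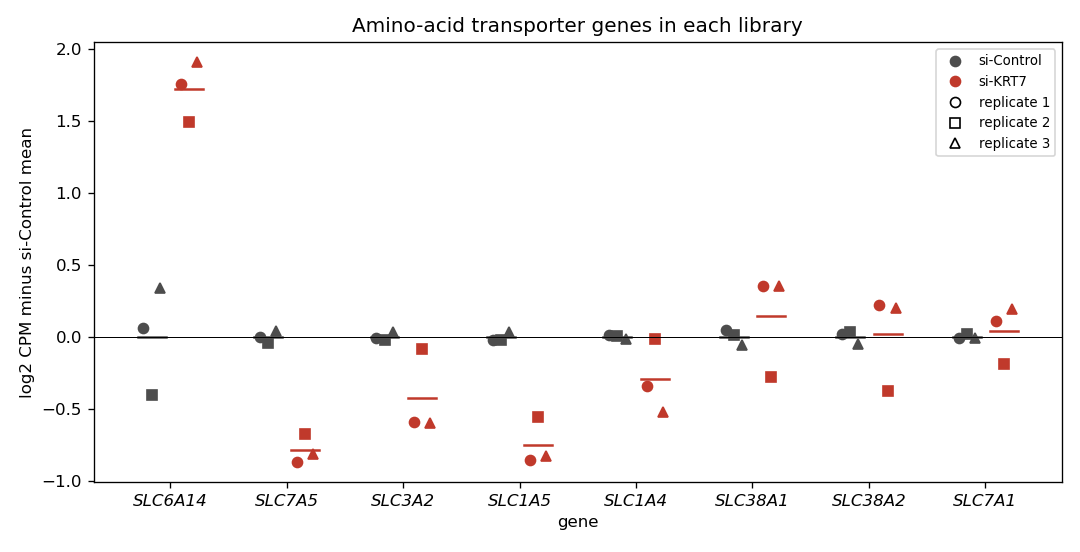
Log2 CPM of each transporter gene (x axis) in each library, minus the mean of the 3 si-Control libraries (y axis, log2 units). Grey symbols are si-Control and red symbols si-KRT7 libraries, the symbol shape gives the replicate and short lines are group means. In SLC6A14, SLC7A5 and SLC1A5 the 3 si-KRT7 libraries lie clearly on one side of the si-Control libraries. In SLC3A2 and SLC1A4 they also lie below, but replicate 2 is close to the lowest si-Control library. In SLC38A1, SLC38A2 and SLC7A1 replicate 2 lies below the si-Control libraries and replicates 1 and 3 above them.

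SLC7A5 (ENSG00000103257) encodes the light chain of the leucine exchanger LAT1, the part that carries large neutral amino acids in return for glutamine. It stood at 289, 281 and 297 CPM in si-Control replicates 1, 2 and 3 and at 158, 181 and 164 CPM in those of si-KRT7. Each si-KRT7 library thus lay at 54.7%, 62.6% and 56.9% of the si-Control mean, with a wide gap between the groups. The means were 289 ± 8.18 CPM (SD, n = 3) and 168 ± 11.8 CPM (SD, n = 3), with a log2 fold change of -0.78 (standard error 0.08). SLC7A5 ranked 259 from the bottom by log2 fold change, and its value was -0.85 without si-KRT7 replicate 2.

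SLC3A2 (ENSG00000168003) encodes the heavy chain that brings LAT1 and related light chains to the cell surface. Its levels were 344, 341 and 355 CPM in si-Control and 231, 327 and 229 CPM in si-KRT7 replicates 1, 2 and 3. Replicates 1 and 3 of si-KRT7 lay near 66.5% and 65.9% of the si-Control mean, but replicate 2 lay at 94.2%, just below the lowest si-Control library. The means were 347 ± 7.43 CPM (SD, n = 3) and 262 ± 56.0 CPM (SD, n = 3), with a log2 fold change of -0.41 (standard error 0.14) over all libraries and -0.60 without replicate 2.

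The light and heavy chain counts therefore did not keep their ratio. Within a library the ratio of SLC7A5 to SLC3A2 counts needs no normalization, and since neither count is divided by gene length, the ratio is compared between libraries only. It was 0.839, 0.824 and 0.837 in si-Control replicates 1, 2 and 3 and 0.686, 0.554 and 0.719 in those of si-KRT7. All 3 si-KRT7 libraries lay below all si-Control libraries, and replicate 2, where SLC3A2 was close to its control level, had the lowest ratio. The ratios given here and for other pairs were not among the planned results. How many of all gene pairs would show no overlap was not computed, while 24.4% of single genes showed none.

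SLC1A5 (ENSG00000105281) encodes the sodium-dependent exchanger ASCT2, a main route for glutamine into many tumour cells. In si-Control replicates 1, 2 and 3 it had 507, 507 and 527 CPM, and in those of si-KRT7 283, 349 and 289 CPM. The si-KRT7 libraries were at 55.1%, 68.0% and 56.2% of the si-Control mean, again without overlap. The group means were 514 ± 11.4 CPM (SD, n = 3) and 307 ± 36.6 CPM (SD, n = 3), and the log2 fold change was -0.74 (standard error 0.09), or -0.85 without si-KRT7 replicate 2. It ranked 312 from the bottom among all genes tested, close to SLC7A5.

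SLC1A5 and SLC7A5 had nearly parallel levels across the 6 libraries. The ratio of SLC1A5 to SLC7A5 counts was 1.78 ± 0.0248 (SD, n = 3) in si-Control and 1.83 ± 0.0912 (SD, n = 3) in si-KRT7 cells, and the groups overlapped. The ratio of SLC1A5 to SLC3A2 counts was 1.48 ± 0.00682 (SD, n = 3) in si-Control and 1.19 ± 0.104 (SD, n = 3) in si-KRT7 cells, without overlap. Further ratios were formed, given here for si-Control and si-KRT7 (SD, n = 3). Those of SLC1A5 to SLC1A4 (43.8 ± 1.43 and 32.1 ± 2.96) and to SLC38A2 (0.432 ± 0.0236 and 0.265 ± 0.0998) had no overlap either. That of SLC7A1 to SLC38A2 (0.0801 ± 0.00205 and 0.0815 ± 0.00853) overlapped.

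SLC1A4 (ENSG00000115902) encodes ASCT1, a relative of ASCT2 that exchanges alanine, serine, cysteine and threonine. It was sparser, with 365 to 427 counts in si-Control and 251 to 344 counts in si-KRT7 libraries. Its CPM values were 11.8, 11.8 and 11.6 in si-Control and 9.26, 11.6 and 8.15 in si-KRT7 replicates 1, 2 and 3. Replicates 1 and 3 were lower than any si-Control library, while replicate 2 equalled the lowest of them to 3 digits. The means were 11.7 ± 0.122 CPM (SD, n = 3) and 9.67 ± 1.76 CPM (SD, n = 3), and the log2 fold change of -0.28 (standard error 0.14) was -0.43 without replicate 2.

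**Figure D2:**
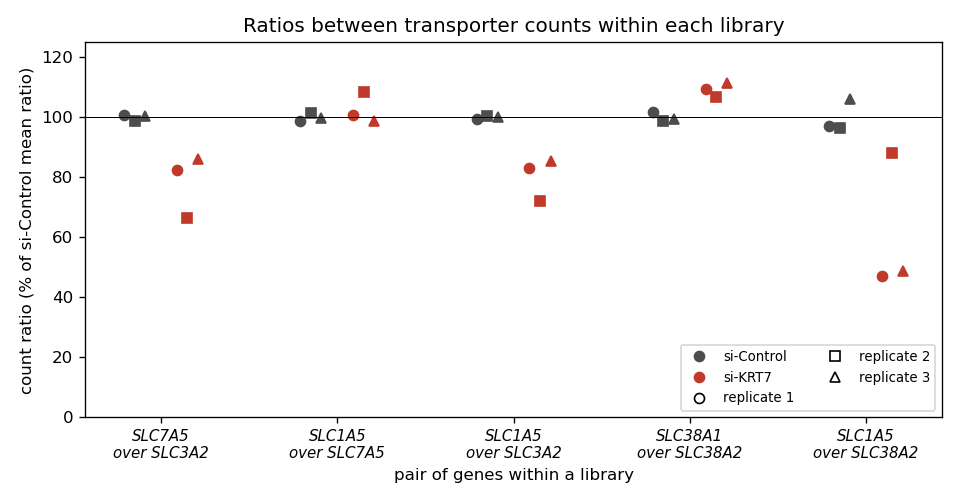
Ratio between the counts of a pair of transporter genes within each library (y axis, as a percentage of the mean ratio of the si-Control libraries) for 5 pairs (x axis). Grey symbols are si-Control, red symbols si-KRT7 libraries and shapes give the replicate. The ratio of SLC1A5 to SLC7A5 stays between 98.8% and 109% in all libraries, and that of SLC7A5 to SLC3A2 is between 66.5% and 86.3% in the si-KRT7 libraries.

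SLC38A1 (ENSG00000111371) and SLC38A2 (ENSG00000134294) encode the sodium-coupled carriers SNAT1 and SNAT2, which take up glutamine and alanine without exchange. SLC38A2 is also known for its induction when amino acids are scarce. SLC38A1 had 315, 308 and 293 CPM in si-Control and 390, 251 and 391 CPM in si-KRT7 replicates 1, 2 and 3. Replicates 1 and 3 were above every si-Control library and replicate 2 was below them all. The means of 305 ± 11.3 CPM (SD, n = 3) and 344 ± 80.3 CPM (SD, n = 3) thus differed by less than the spread within si-KRT7, with a log2 fold change of 0.17 (standard error 0.16) over all libraries and 0.35 without replicate 2.

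SLC38A2 followed the same order at 1209, 1217 and 1148 CPM in si-Control and 1392, 919 and 1368 CPM in si-KRT7 replicates 1, 2 and 3. Its means were 1192 ± 37.6 CPM (SD, n = 3) and 1227 ± 266 CPM (SD, n = 3), and the log2 fold change was 0.04 (standard error 0.15). That value was 0.21 without si-KRT7 replicate 2 but -0.06 without replicate 1 and -0.05 without replicate 3, so its sign rested on single libraries. The ratio of SLC38A1 to SLC38A2 counts nevertheless varied little. It was 0.261, 0.253 and 0.255 in si-Control and 0.280, 0.273 and 0.285 in si-KRT7 replicates 1, 2 and 3, slightly higher in every si-KRT7 library.

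SLC7A1 (ENSG00000139514) encodes CAT1, the carrier of arginine and lysine. Levels of 95.0, 96.4 and 94.6 CPM in si-Control stood against 103, 83.5 and 109 CPM in si-KRT7 replicates 1, 2 and 3. As in SLC38A1 and SLC38A2, replicate 2 was below and replicates 1 and 3 were above all si-Control libraries. The means were 95.3 ± 0.974 CPM (SD, n = 3) and 98.6 ± 13.4 CPM (SD, n = 3). The log2 fold change was 0.05 (standard error 0.11), with 0.15 without replicate 2 and -0.03 without replicate 3.

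The groups did not overlap in 5 of the 8 members, 1 higher and 4 lower in si-KRT7 cells. Over all genes tested 24.4% did not overlap, 11.3% higher and 13.0% lower. SLC1A4 is among the 5 by the smallest of margins. With DESeq2's size factors, a scaling that is also among the alternatives, SLC1A4 overlapped, which left 4. The check of overlap under other scalings was made after seeing the data. In 3 members, SLC38A1, SLC38A2 and SLC7A1, si-KRT7 replicate 2 lay on the other side of the si-Control mean from replicates 1 and 3. This arrangement occurred in 41.3% of all genes tested. The coefficient of variation between libraries had a median over the members of 2.52% in si-Control and 16.3% in si-KRT7 cells, and over the genes with a mean of at least 50 counts of 4.80% and 13.9%. SLC6A14 was the one member that varied more in si-Control (26.4%) than in si-KRT7 cells (14.4%). It had 26 to 39 counts in si-Control and 78 to 127 in si-KRT7 libraries, so counting error alone was relatively larger in si-Control.

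The 8 log2 fold changes had a median of -0.12, with 4 above and 4 below 0, against a median of 0.01 over all genes tested. Their median absolute value was 0.34, against 0.18 over all genes, and 37.5% of the members exceeded an absolute log2 fold change of 0.5, against 12.8% of all genes. These values describe genes chosen with the comparison known. Summed over the members, si-Control cells had 2755 ± 23.1 CPM (SD, n = 3) and si-KRT7 cells 2419 ± 254 CPM (SD, n = 3). The si-KRT7 replicates 1, 2 and 3 had 2570, 2126 and 2562 CPM in this sum. Sums over some of the members were formed after their values were seen. The sum of SLC7A5, SLC3A2, SLC1A5 and SLC1A4 was 1162 ± 26.3 CPM (SD, n = 3) and 747 ± 106 CPM (SD, n = 3), respectively, with 681, 869 and 690 CPM in si-KRT7 replicates 1, 2 and 3. For SLC38A1, SLC38A2 and SLC7A1 the sum was 1592 ± 48.7 CPM (SD, n = 3) and 1669 ± 360 CPM (SD, n = 3). Here si-KRT7 replicates 1 and 3, at 1885 and 1868 CPM, lay above every si-Control library and replicate 2, at 1254 CPM, below them all.

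**Figure D3:**
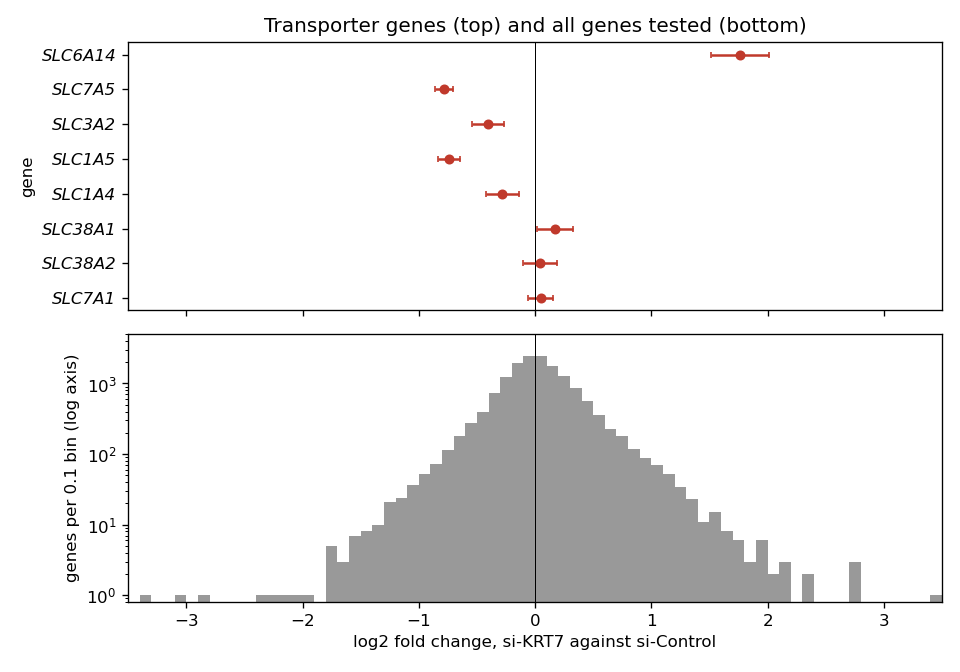
Log2 fold change in si-KRT7 against si-Control cells (x axis) of each transporter gene with its standard error (top) and of all 15736 genes tested (bottom, genes per bin on a log axis). SLC6A14 at 1.76 lies in the upper tail, SLC7A5 at -0.78 and SLC1A5 at -0.74 in the lower tail, and SLC38A2 and SLC7A1 near the centre.

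Likeness between expression profiles was measured as the root mean square difference of log2 CPM over the 6 libraries, after the mean of each gene was subtracted. SLC7A5 and SLC1A5 were the closest pair, with a distance of 0.0467 log2 units. Among 12461 other genes with a mean of at least 50 counts, SLC1A5 ranked 6 by its closeness to SLC7A5, and SLC7A5 ranked 6 by its closeness to SLC1A5. SLC3A2 ranked 409 by closeness to SLC7A5, at a distance of 0.214. SLC38A1 and SLC38A2 were 0.0667 apart and ranked 344 and 330 by closeness to each other. SLC3A2 and SLC1A4 were 0.0920 apart and ranked 442 and 294. SLC38A2 and SLC7A1 were 0.0893 apart and ranked 1314 and 757. In these pairs many other genes thus lay closer than the partner. SLC6A14 was at least 0.829 from any other member. That follows in part from its choice for a difference between the groups, which the distance includes. These profiles share the same libraries and depth, and the distance is a description.

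**Figure D4:**
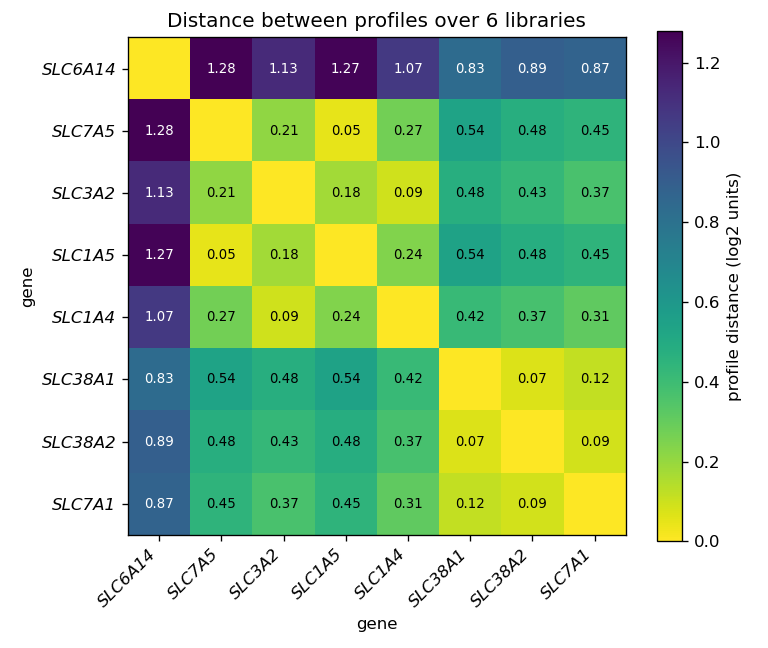
Profile distance between each pair of transporter genes (both axes), as the root mean square difference of centred log2 CPM over 6 libraries, in log2 units (colour scale, yellow for close). The smallest value, 0.05, is that of SLC7A5 and SLC1A5. SLC6A14, which was chosen for its difference between the groups, is far from all others.

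The profiles closest to SLC6A14 among all genes belonged to ENSG00000137745, at a distance of 0.312, and ENSG00000167460, at 0.326. They are given by identifier for want of human gene names. ENSG00000137745 was of similar abundance, at 1.94 ± 0.0926 CPM (SD, n = 3) without and 5.34 ± 0.760 CPM (SD, n = 3) with the siRNA against KRT7. ENSG00000167460 was far more abundant in reads, with 173 ± 2.77 CPM (SD, n = 3) and 424 ± 11.9 CPM (SD, n = 3). That both were higher in each si-KRT7 library follows from how they were picked. Both came first and second as well with a prior count of 0.5 in place of 2 and with library size as the only scaling.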

How the data were processed

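Per the labels, polyadenylated RNA of 3 si-Control and 3 si-KRT7 transfected CFPAC-1 samples was sequenced on the DNBSEQ platform. The deposited values are raw read counts for each gene and library. The submitters' processing notes name STAR 2.7.11b and the mouse build GRCm39, which does not match the human identifiers. The counting tool, annotation and strand setting are not given in the sources used here, so reads of overlapping or near-identical genes may be shared. Symbols of the 8 members follow the list that defined them. Since 0 of 30543 identifiers matched the name tables used here, KRT7 itself, the lists written for other transporters, amino-acid sensing, the amino-acid response, tRNA synthetases, amino-acid metabolism and cell type markers, gene lengths and sequences were not analysed here.

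The main analysis was run with edgeR 4.0.16 under R 4.3.3 (filterByExpr, TMM, glmQLFit and glmQLFTest, Benjamini-Hochberg adjustment over 15736 genes, adjusted p under 0.05 and absolute log2 fold change over 1). The standard error was derived from the F statistic. Profiles were taken as log2 CPM (prior count 2) of genes with a mean of at least 50 counts. On simulated counts with 200 changed genes, recovery was counted by the adjusted p alone, without the limit on log2 fold change. So counted, edgeR recovered 84.0% of 2-fold changes among 15517 genes and 96.5% of 4-fold changes among 15501 genes. Every simulated gene had the same coefficient of biological variation, 0.130, against a trend value of 0.201 for SLC6A14. No deviating replicate was simulated, so these shares do not give the recovery in the real libraries. Alternatives used DESeq2 1.42.0 and limma 3.58.1. Total counts of 28208896 to 36315802 per library set the counting precision. The genes named were to be the members, KRT7, leading genes of each list and the closest profiles to SLC6A14, of which the first 2 are given by identifier. Members and lists were chosen with earlier results of these data known.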

Additional observations from a re-analysis of the deposited data

How the results depend on the processing

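The log2 fold change of each member and the members' median (-0.16 to -0.10) moved by less than the spread between replicates in all 15 alternatives. A shift from omitting 1 of 3 libraries can hardly exceed that spread, which si-KRT7 replicate 2 widens. Those comparisons cannot test stability. SLC6A14 was the one member past both limits in 10 of the 15, and none passed in the other 5. The number of members past the adjusted p was 3 and stayed so in 7 of the 9 alternatives that kept all libraries. It was 4, with SLC3A2 added, without a filter on low counts, where 4.41% of all genes passed, and 8 with sample quality weights in limma-voom, where 43.6% did, against 2.07% in the main result. When single libraries were left out in turn, between 0 and 1 members passed both limits and between 0 and 8 the adjusted p. All 8 passed without si-KRT7 replicate 2 (42.9% of all genes), none without any one si-Control library (0.0372% to 0.0616%), SLC7A5 and SLC1A5 without si-KRT7 replicate 1 (0.542%), and SLC7A5 alone of the members without si-KRT7 replicate 3 (0.223%). In these fits members' counts moved with the whole table's. With the DESeq2 Wald test (7.30%) and a replicate block (0.483%) 3 members passed. Signs were the same in all alternatives except for SLC38A2 (13 of 15 positive) and SLC7A1 (14 of 15 positive).

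Over all genes, 46 were past both limits, 23 in each direction, and 325 past the adjusted p. The DESeq2 Wald test gave 103 (65 higher, 38 lower) and 1148, no filter on low counts 154 (98 higher, 56 lower) and 1347, and sample quality weights 443 (283 higher, 160 lower) and 6858. Leaving out a library gave from 6 to 356 (2 to 215 higher, 4 to 141 lower) and from 6 to 6944, with the highest values without si-KRT7 replicate 2. The cause was not tested. A replicate block in the design left 25 genes (13 higher, 12 lower) and 76, with members at 1 and 3. Deviations of same-numbered libraries from group means correlated at 0.0520, -0.0798 and -0.0728. With 3 per group this cannot decide pairing. Library size in place of TMM raised the log2 fold changes of the members by between 0.02 and 0.03. No alternative was run for the gene lists, which could not be matched to identifiers. The depth limits SLC6A14 most, with as few as 26 counts in a library.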
